A study of Mus musculus with 2 samples.

Results

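The genes described here are Ptgs1, Ptgs2, Ptges, Ptgds, Hpgds, Alox5, Alox5ap, Ltc4s and Cysltr1, which code for enzymes of prostaglandin and leukotriene synthesis and for a leukotriene receptor. They were taken as a named list and not by a measured value, and all 9 were found among the 27998 genes counted in each library. All are annotated as protein-coding in GENCODE on the mouse build GRCm38, whose coordinates are given at each gene. Ptgs1, Hpgds, Alox5ap, Ltc4s and Cysltr1 overlap another annotated gene on the opposite strand. Ptges and Cysltr1 overlap one on the same strand, and reads shared with it may have been left out of their counts. Whether the reference used for counting holds these overlapping genes was not checked. The data are 2 single-cell RNA sequencing (scRNA-seq) libraries of mouse ear skin, 1 for each group. The control library came from healthy ear skin of ICR mice, an outbred stock, aged 7 to 8 weeks. The ACD library came from ICR mice of the same age with allergic contact dermatitis (ACD) raised by the hapten dinitrofluorobenzene (DNFB). These mice were sensitized on the dorsal skin with 1.0% DNFB, painted on the ears with 0.2% DNFB on day 6, and sampled 60 hr after that. The methods describe the mice as male and name no transgene or deletion in either group, and the number of mice behind each library is not given in the sources used here. With 1 library per group there was no replicate error and no test of ACD against control, so each value is given with an exact 95% interval that covers counting error only.

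Prostaglandins and leukotrienes are short-lived lipid signals made from arachidonic acid that phospholipases free from membranes. The cyclooxygenases COX-1 and COX-2 turn it into prostaglandin H, which terminal synthases convert to prostaglandin E, prostaglandin D and other prostanoids. 5-lipoxygenase, helped by its activating protein FLAP, starts the leukotriene branch, and leukotriene C4 synthase couples the product to glutathione to give the cysteinyl leukotrienes, which are known in skin and airway for vascular leak and for recruiting allergic effector cells.

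After removal of barcodes outside 201 to 4999 genes, above 25000 unique molecular identifiers (UMIs) or at 8% or more mitochondrial UMIs, 12213 control and 11665 ACD cells remained, with 92188895 and 99649023 UMIs. Of these cells, 47 barcodes occurred in both libraries. Cells were assigned to 15 classes by marker UMIs, none of them a member gene. The 7 classes of main interest held 92 control and 146 ACD mast cell-like cells, 1 and 199 basophil-like cells, 21 and 39 macrophage-gated cells, 28 and 26 Langerhans-like cells, 3 and 66 neutrophil-like cells, 3558 and 1651 fibroblast-like cells, and 63 and 61 ILC2-gated cells. Levels are counts per 1000000 (CPM), the UMIs of a gene per 1000000 UMIs of the class, so they compare a gene between classes and not one gene with another. All 8 of 8 markers used for gating were found in mast cell-like, Langerhans-like, neutrophil-like and fibroblast-like cells of both libraries. Such counts follow largely from the gates and do not test the labels. The macrophage gate also held 9 of 9 in both libraries, and the 1 basophil-like control cell held 3 of 7. By their leading genes the labels of the macrophage and ILC2 gates were less secure. The macrophage gate was led by Lyz2, Pf4 and C1qa in control but by Lyz2 and MHC class II genes in ACD, where C1qa stood at 651 CPM against 3025 in control and Pf4 at 109 against 5272. The ILC2 gate was led in ACD by Gzmc, Xcl1 and Areg, and Gzmc and Xcl1 are genes of cytotoxic lymphocytes. In control it was led by Cd69, Ctla2a and Cd52. Of its control cells 98.4% held Rora, 79.4% Gata3 and 36.5% Il13, but 9.52% Il1rl1 and 12.7% Il17rb. Under stricter gates the 22 control cells were led by Ctla2a, Gzmc and Cd69, and the 17 ACD cells by Areg, Csf2 and Il13. The cells of these gates are therefore called macrophage-gated and ILC2-gated. The dendritic cell gate, outside the 7 classes, was led in ACD by H2-Aa, Cd74, H2-Ab1, Il1b and Lyz2. Its label is no more secure, and dendritic cell-like names the gate only. The neutrophil-like and basophil-like control cells were too few to count genes past a fold in them.

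**Figure D1:**
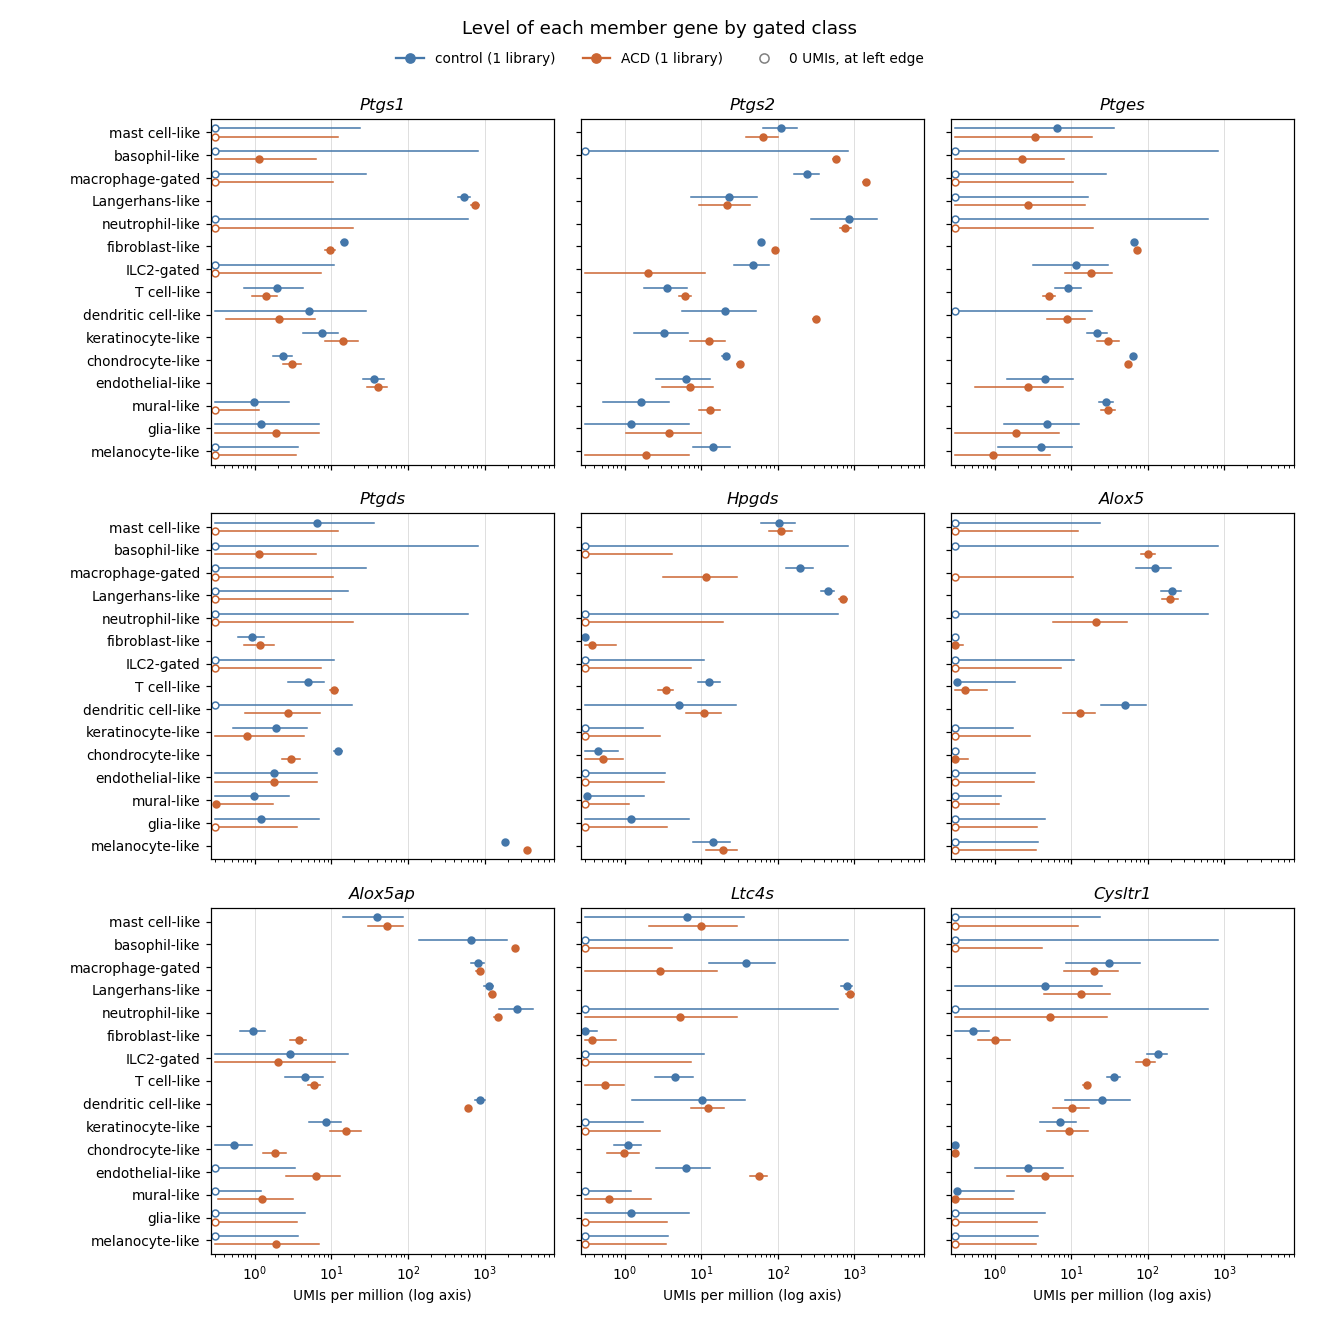
Level of each member gene, in CPM on a log axis, in 15 gated classes of the control and the ACD library. Points are the values of 1 library each, lines are exact 95% Poisson intervals, open points at the left edge mark 0 UMIs, and filled points at that edge lie at or below it. Langerhans-like cells stand high for Ptgs1, Hpgds, Alox5, Alox5ap and Ltc4s in both libraries, while Ptgds stands high in melanocyte-like cells.

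Ptgs1 codes for COX-1, the cyclooxygenase usually described as constitutive (chr2:36230426-36252272, plus strand, GRCm38). Its level in Langerhans-like cells was 544 CPM in control (451 to 651; 120 UMIs) and 749 in ACD (663 to 843; 276 UMIs). The log2 ratio of ACD over control was 0.46 (0.15 to 0.78). With 10 CPM added to each library it was 0.45, and with cells also thinned to 2000 UMIs it was 0.05. Endothelial-like cells came next, far lower, with 36.0 in control (25.7 to 49.1) and 40.3 in ACD (29.4 to 53.9). Fibroblast-like cells had 14.7 (13.3 to 16.1) and 9.53 (8.19 to 11.0), and keratinocyte-like cells 7.55 (4.31 to 12.3) and 14.05 (8.32 to 22.2), so their order turned between the libraries, with overlapping intervals in ACD. Endothelial-like cells did not differ between libraries beyond counting error (log2 ratio 0.16, -0.49 to 0.81), while fibroblast-like cells had a lower level in ACD (log2 ratio -0.62, -0.88 to -0.37). No Ptgs1 UMI was found in mast cell-like, macrophage-gated, neutrophil-like or ILC2-gated cells of either library, which for mast cell-like cells allows up to 19.5 CPM in control and 10.01 in ACD. Although Langerhans-like cells were 0.229% of control and 0.223% of ACD cells, they held 13.9% (11.7 to 16.4%) and 32.5% (29.3 to 35.7%) of all Ptgs1 UMIs. Fibroblast-like cells held 51.6% of them in control and 21.1% in ACD.

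Ptgs2 codes for COX-2, the inducible cyclooxygenase, and lies at chr1:150100031-150108227 on the plus strand of GRCm38. Its promoter window is shown because Ptgs2 was the only member past a 2-fold difference in the counts by class given further on. The window spans chr1:150099781-150100080 (RefSeq, GRCm38.p6, plus strand), from 250 bases before to 50 bases after the RefSeq start. Capitals mark TTGCGCAA, a palindrome that C/EBP factors bind. They also mark, in 1 run, CGTCA, the reverse complement of TGACG, overlapping the E-box CACGTG by 2 bases.
Ptgs2: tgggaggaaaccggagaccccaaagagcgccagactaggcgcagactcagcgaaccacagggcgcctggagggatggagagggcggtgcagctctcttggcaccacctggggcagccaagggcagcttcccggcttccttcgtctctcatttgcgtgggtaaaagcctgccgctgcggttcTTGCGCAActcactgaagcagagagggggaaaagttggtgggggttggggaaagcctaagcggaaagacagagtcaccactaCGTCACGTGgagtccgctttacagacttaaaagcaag

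Searched on both strands, TTGCGCAA occurs in 0.183% of all 32851 windows of 300 bases in the RefSeq table, TGACG in 20.8% and CACGTG in 7.15%. These matches describe letters, and no binding was measured here. The TTGCGCAA match starts 69 bases before the RefSeq start, and the overlapping pair starts 14 bases after it.

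In macrophage-gated cells Ptgs2 was at 241 CPM in control (164 to 342; 31 UMIs) and at 1407 in ACD (1285 to 1537; 491 UMIs). The ratio of ACD over control was 5.84-fold, a log2 ratio of 2.55 (2.02 to 3.12). All 31 control UMIs came from 1 of 21 cells, while 16 of 39 ACD cells held a UMI, the highest of them with 122 UMIs. Cells share their level unevenly, so the interval, which treats UMIs as independent, is too narrow for both values. With at least 2 UMIs of C1qa, C1qb or C1qc also required, a choice made after the data were seen, 19 cells of each library remained, with 0 Ptgs2 UMIs in control and 132 in ACD (998 CPM). Own macrophage markers summed to 15459 CPM in control and 2347 in ACD with 9 of 9 found in both, and dendritic cell markers to 20047 and 37834 with 6 of 10 found in each. Of the dendritic cell list Flt3, Cd209a, Cd74, H2-Aa and H2-Ab1 had UMIs in both libraries of this gate, Zbtb46 in control only and Fscn1 in ACD only, while Xcr1, Clec9a and Ccr7 were at 0 in both. The part of these markers in the Ptgs2 ratio was not tested.

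Basophil-like cells of the ACD library held Ptgs2 at 581 CPM (532 to 633; 517 UMIs), with a UMI in 91 of 199 cells (45.7%, 38.7 to 52.9%). The 1 basophil-like control cell held no Ptgs2 UMI, which gives no ratio. Neutrophil-like cells were at 836 CPM in control (272 to 1952; 5 UMIs in 3 cells) and 756 in ACD (637 to 890; 144 UMIs), a difference inside counting error. Fibroblast markers summed to 8475 CPM in the neutrophil-like and 1851 in the basophil-like cells of ACD, with 8 of 8 found in both, and their part in these levels was not tested. Dendritic cell-like cells had 20.3 in control (5.53 to 52.0; 4 UMIs) and 312 in ACD (283 to 342; 453 UMIs), a log2 ratio of 3.94 (2.57 to 5.82). A UMI was held by 41 of 165 ACD cells, and 1 of them held 97 of the 453. With 10 CPM added to each library that log2 ratio was 3.41, and under stricter gates it was 1.38.

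Among stromal cells Ptgs2 was carried by a minority of cells at high counts. Fibroblast-like cells had 59.5 CPM in control (56.8 to 62.3; 1806 UMIs) and 92.8 in ACD (88.5 to 97.2; 1742 UMIs), which is 1.56-fold higher in ACD (log2 ratio 0.64, 0.54 to 0.74). With all deposited barcodes kept the levels were 60.4 and 143.6, which is past 2-fold. Ptgs2 was seen in 469 of 3558 control (13.2%) and 323 of 1651 ACD fibroblast-like cells (19.6%), and the top 10% of cells held 93.7% and 87.6% of the UMIs. At a depth of 2000 UMIs per cell the shares were 6.03% (5.27 to 6.86%) and 9.45% (8.09 to 11.0%), against 0.347% and 0.871% in T cell-like cells taken as background, whose median depths were 3997 and 6003 UMIs against 7835.5 and 10450 in fibroblast-like cells. Chondrocyte-like cells followed at 20.7 (18.9 to 22.7) and 32.1 (29.6 to 34.8), 1.55-fold higher in ACD. Mural-like cells had 1.62 (0.526 to 3.78) and 12.95 (9.34 to 17.5), from 5 and 42 UMIs, but 28 of the 42 came from 1 of 323 cells.

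Mast cell-like cells had few Ptgs2 UMIs, 17 in control (111 CPM, 64.4 to 177) and 19 in ACD (63.4, 38.2 to 99.0), and 8 of the 17 control UMIs came from 1 cell. Their log2 ratio of -0.80 (-1.82 to 0.23) held 0 within its interval, and its sign turned when cells were thinned to 2000 UMIs. Fibroblast markers in these cells summed to 8043 CPM in control and 1232 in ACD, with 8 of 8 found in both, and their part in the Ptgs2 values was not tested. In ILC2-gated cells 16 Ptgs2 UMIs were found in control, 10 of them in 1 cell and all in 4 of 63 cells, and 1 in ACD (46.7 and 2.00 CPM). Fibroblast markers there summed to 8716 and 3491 CPM, also with 8 of 8 found, and their part was not tested. Fibroblast-like cells held 53.2% (51.5 to 54.9%) of all Ptgs2 UMIs in control and 27.5% (26.4 to 28.6%) in ACD. In ACD, basophil-like, macrophage-gated and dendritic cell-like cells held 8.15%, 7.74% and 7.14% of them, against 0%, 0.913% and 0.118% in control.

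**Figure D2:**
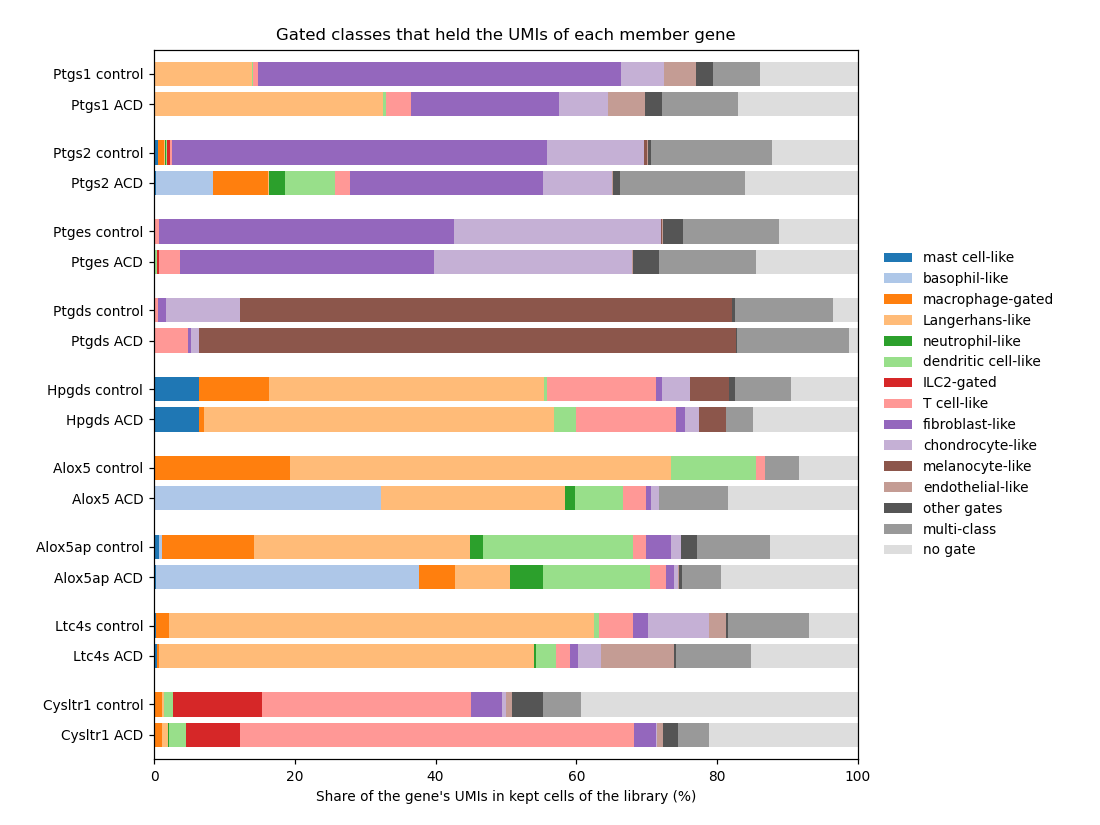
Share of each member gene's UMIs held by each gated class, in percent of that gene's UMIs in the kept cells, with a bar for each library. Keratinocyte-like, mural-like and glia-like cells, cells of several gates and cells of none are shown in grey. Basophil-like cells take 37.3% of the Alox5ap UMIs and 32.2% of the Alox5 UMIs of the ACD library, and melanocyte-like cells hold 69.9% and 76.2% of the Ptgds UMIs.

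Ptges, the microsomal prostaglandin E synthase (chr2:30889471-30929863, minus strand), had its highest levels in fibroblast-like and chondrocyte-like cells of both libraries. Fibroblast-like cells had 66.9 CPM in control (64.0 to 69.9; 2030 UMIs) and 72.3 in ACD (68.5 to 76.2; 1357 UMIs), and chondrocyte-like cells had 63.3 (60.03 to 66.6) and 54.8 (51.6 to 58.3). The log2 ratios, 0.11 (0.01 to 0.21) and -0.21 (-0.32 to -0.09), lay on either side of 0 and were both small. Mural-like cells had 28.5 (22.9 to 35.1) and 30.2 (24.5 to 36.8), and keratinocyte-like cells 21.7 (15.9 to 28.9) and 30.4 (21.6 to 41.6). At most 2 Ptges UMIs were found in each library in mast cell-like, basophil-like, macrophage-gated, Langerhans-like and neutrophil-like cells. Ptgs2 and Ptges were found together in 188 of 3558 fibroblast-like control cells (5.28%, 4.57 to 6.07%) and 202 of 1651 ACD cells (12.2%, 10.7 to 13.9%). These shares were not thinned, and median depth in this class was 7835.5 and 10450 UMIs. Ptges alone or with Ptgs2 was found in 1366 control and 729 ACD cells, and Ptgs2 alone or with Ptges in 469 and 323. The overlap was not compared with that expected from these counts.

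Ptgds, the lipocalin-type prostaglandin D synthase (chr2:25466709-25470046, minus strand), was concentrated in melanocyte-like cells. Its level there was 1842 CPM in control (1759 to 1929; 1836 UMIs) and 3606 in ACD (3492 to 3722; 3800 UMIs), which is 1.96-fold higher in ACD (log2 ratio 0.97, 0.89 to 1.05). It was seen in 139 of 196 control (70.9%) and 136 of 167 ACD melanocyte-like cells (81.4%). At 2000 UMIs per cell these shares were 56.8% (49.2 to 64.2%) and 64.7% (56.7 to 72.2%), with overlapping intervals, against 0.521% and 0.453% in T cell-like cells. Chondrocyte-like cells stood far lower, at 12.2 CPM in control (10.8 to 13.7; 275 UMIs) and 3.01 in ACD (2.29 to 3.90; 58 UMIs), a log2 ratio of -2.02 (-2.45 to -1.60). In the 7 classes of main interest Ptgds had 28 and 22 UMIs in fibroblast-like cells (0.923 and 1.17 CPM), 1 UMI each in mast cell-like control and basophil-like ACD cells, and none in macrophage-gated, Langerhans-like, neutrophil-like or ILC2-gated cells.

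Hpgds, the hematopoietic prostaglandin D synthase (chr6:65117293-65144908, minus strand), makes the same product in blood-derived cells. Langerhans-like cells had the highest level, 444 CPM in control (361 to 541; 98 UMIs) and 703 in ACD (620 to 794; 259 UMIs), a log2 ratio of 0.66 (0.32 to 1.01). Mast cell-like cells followed in ACD at 110 (75.8 to 155; 33 UMIs) and in control stood at 104 (59.5 to 169; 16 UMIs), a log2 ratio of 0.08 whose wide interval (-0.82 to 1.04) held 0. A Hpgds UMI was found in 13 of 92 and 27 of 146 mast cell-like cells. After thinning to 1000 UMIs the counts were 2 of 54 (3.70%, 0.452 to 12.7%) and 14 of 103 (13.6%, 7.63 to 21.8%), with 38 and 43 shallower cells left out, against 0.0752% and 0.0518% of chondrocyte-like cells.

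Macrophage-gated cells had 194 Hpgds CPM in control (126 to 287; 25 UMIs in 9 of 21 cells) and 11.46 in ACD (3.12 to 29.4; 4 UMIs in 4 of 39 cells), a log2 ratio of -4.08 (-6.07 to -2.55). With C1q UMIs required the values were 224 and 30.2. T cell-like cells had 12.8 (9.07 to 17.4) in control and 3.42 (2.68 to 4.29) in ACD, from 39 and 74 UMIs. The part of a changed mix of T cells in these values was not tested. No Hpgds UMI was seen in basophil-like, neutrophil-like or ILC2-gated cells, which in ACD basophil-like cells allows up to 3.37 CPM.

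Alox5 codes for 5-lipoxygenase (chr6:116410077-116461178, minus strand), the first enzyme of the leukotriene branch. It was at 204 CPM in Langerhans-like control cells (149 to 273; 45 UMIs) and 195 in ACD (153 to 246; 72 UMIs), a log2 ratio of -0.06 (-0.62 to 0.51). In macrophage-gated cells it was at 124 in control (71.1 to 202; 16 UMIs in 9 of 21 cells) and 0 in ACD (0 of 348946 UMIs), which at a floor of 3 UMIs, with the control level taken as measured, makes the ACD level at least 14.5-fold lower. The exact interval of the log2 ratio, which also covers the control count, had its upper limit at -3.39. With all deposited barcodes kept, that is with no filter on genes, UMIs or mitochondrial share, 11 Alox5 UMIs appeared in 45 ACD cells of this gate, and the levels were 119 and 25.6. In the ACD library basophil-like cells were at 100 CPM (80.3 to 123; 89 UMIs in 69 of 199 cells). Neutrophil-like ACD cells had 4 UMIs in 66 cells. No Alox5 UMI was found in the 92 control and 146 ACD mast cell-like cells, among 153792 and 299606 UMIs, which allows up to 19.5 and 10.01 CPM.

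Alox5ap codes for FLAP, the membrane protein that presents arachidonic acid to 5-lipoxygenase (chr5:149264767-149288153, plus strand). It was found in most cells of several myeloid classes. Basophil-like cells of ACD had 2465 CPM (2363 to 2571; 2194 UMIs), with a UMI in 198 of 199 cells, and the 1 control cell held 3 UMIs. Neutrophil-like cells had 2676 in control (1530 to 4346; 16 UMIs in 3 cells) and 1480 in ACD (1312 to 1663; 282 UMIs in 65 of 66 cells). Langerhans-like cells had 1129 (993 to 1278) and 1249 (1137 to 1368), and macrophage-gated cells 824 (675 to 997) and 863 (768 to 966). These Langerhans-like and macrophage-gated levels did not differ between libraries beyond counting error, with log2 ratios of 0.15 (-0.08 to 0.37) and 0.07 (-0.26 to 0.40). Dendritic cell-like cells had 873 (747 to 1014) and 612 (572 to 654), lower in ACD (log2 ratio -0.51, -0.75 to -0.27).

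Mast cell-like cells were low for Alox5ap, at 39.0 CPM in control (14.3 to 84.9; 6 UMIs) and 53.4 in ACD (30.5 to 86.7; 16 UMIs). Fibroblast-like cells had 0.956 (0.640 to 1.37; 29 UMIs) and 3.73 (2.91 to 4.71; 70 UMIs). The fibroblast-like log2 ratio was 1.96 (1.32 to 2.64), but at 2000 UMIs per cell the shares were 0.197% and 0.303%, in chondrocyte-like cells taken as background 0.0376% and 0.415%, so in ACD the share was not above the background. Whole-library Alox5ap UMIs numbered 812 in control and 5881 in ACD. Basophil-like cells held 37.3% (36.1 to 38.6%) of the ACD UMIs, while Langerhans-like (30.7%) and dendritic cell-like cells (21.2%) held the largest gated shares in control. Fewer cells of a class and less RNA per cell both lower such a share, so shares describe each library as sampled.

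Ltc4s codes for leukotriene C4 synthase (chr11:50236461-50238616, minus strand). Langerhans-like cells had 789 CPM in control (676 to 915; 174 UMIs) and 880 in ACD (786 to 981; 324 UMIs), a log2 ratio of 0.16 (-0.11 to 0.43), and they held 60.4% (54.5 to 66.1%) and 53.4% (49.3 to 57.4%) of all Ltc4s UMIs. Macrophage-gated cells had 5 UMIs in control and 1 in ACD, mast cell-like cells 1 and 3, and basophil-like cells 0 and 0. The next highest ACD level was that of endothelial-like cells, at 6.31 in control (2.54 to 12.99; 7 UMIs) and 56.4 in ACD (43.4 to 72.2; 63 UMIs), which is 8.95-fold higher (log2 ratio 3.16, 2.04 to 4.53). In the endothelial-like class 7 of 137 control and 35 of 104 ACD cells held one. At 2000 UMIs per cell these shares were 0.746% (0.0189 to 4.09%) and 12.5% (6.83 to 20.4%), against 0.1504% and 0.156% in chondrocyte-like cells. Median depth in the endothelial-like class was 6087 and 9988 UMIs. The clusters named as endothelial were led by Ccl21a and by Fabp4, and the part of a changed mix of them in this ratio was not tested.

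Langerhans cells are the antigen-presenting cells of the epidermis, and the gated cells held UMIs of both branches in the same cells. Ptgs1 and Hpgds were found together in 25 of 28 control and 21 of 26 ACD cells, which were all the cells that held either. Ptgs1, Hpgds, Alox5, Alox5ap and Ltc4s all had a UMI in 16 of 28 control cells (57.1%, 37.2 to 75.5%) and 20 of 26 ACD cells (76.9%, 56.4 to 91.0%). Median depth was 6742.5 UMIs in control and 13471 in ACD, so the shares were not taken at equal depth. Thinned to 2000 UMIs, Ptgs1 was found in 70.4% and 61.5% of cells, Hpgds in 51.9% and 65.4%, Alox5 in 25.9% and 23.1%, Alox5ap in 88.9% and 80.8%, and Ltc4s in 74.1% and 69.2%. For each of these the intervals of the libraries overlapped. Ptgs2 UMIs came from 1 cell in each library (5 and 8 UMIs), and Ptgds UMIs were absent. Keratinocyte markers summed to 9.07 CPM in control and 863 in ACD, with 2 and 7 of 8 found. Macrophage markers other than Csf1r summed to 539 and 424, with 4 and 6 of 8 found. The part of these markers in the levels was not tested.

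Of the 5 members that stood high in Langerhans-like cells, 4 have a window in the RefSeq table, and these are shown because the genes share a cell class. Each holds GAGGAA, the core that the myeloid factor PU.1 binds, on 1 strand or the other, marked in capitals (TTCCTC where it lies on the reverse strand). The same letters occur in 28.3% of all windows and in 6 of the 7 members that have one, among them Ptgs2 and Ptges, so they do not set the 4 apart. The windows are chr2:36230176-36230475 (plus strand) for Ptgs1, chr6:65144681-65144980 (minus) for Hpgds, chr6:116461129-116461428 (minus) for Alox5 and chr11:50238483-50238782 (minus) for Ltc4s, all on GRCm38.p6 and printed along the gene's strand.
Ptgs1: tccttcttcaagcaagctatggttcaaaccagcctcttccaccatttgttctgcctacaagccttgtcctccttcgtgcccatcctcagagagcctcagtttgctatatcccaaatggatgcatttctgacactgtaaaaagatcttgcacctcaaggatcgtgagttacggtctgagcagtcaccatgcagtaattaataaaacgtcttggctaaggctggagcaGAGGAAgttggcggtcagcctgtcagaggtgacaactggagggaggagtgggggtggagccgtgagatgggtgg
Hpgds: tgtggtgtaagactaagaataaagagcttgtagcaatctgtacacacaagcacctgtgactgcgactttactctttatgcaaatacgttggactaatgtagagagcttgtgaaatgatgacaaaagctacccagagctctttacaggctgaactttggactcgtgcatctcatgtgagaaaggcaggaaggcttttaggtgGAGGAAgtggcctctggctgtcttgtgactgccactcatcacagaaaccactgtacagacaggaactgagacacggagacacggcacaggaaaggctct
Alox5: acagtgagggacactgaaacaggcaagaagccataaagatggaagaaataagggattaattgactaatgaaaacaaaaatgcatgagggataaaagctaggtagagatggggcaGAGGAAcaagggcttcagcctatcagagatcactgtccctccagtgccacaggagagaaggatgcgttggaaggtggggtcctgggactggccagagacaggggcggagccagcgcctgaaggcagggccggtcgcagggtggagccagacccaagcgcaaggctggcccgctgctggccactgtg
Ltc4s: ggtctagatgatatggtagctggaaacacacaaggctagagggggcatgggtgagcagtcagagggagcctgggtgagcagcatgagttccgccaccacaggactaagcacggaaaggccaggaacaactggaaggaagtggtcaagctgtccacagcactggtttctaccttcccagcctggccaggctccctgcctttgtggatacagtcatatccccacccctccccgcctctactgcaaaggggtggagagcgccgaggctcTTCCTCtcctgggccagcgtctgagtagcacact

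Cysltr1 codes for the type 1 cysteinyl leukotriene receptor (chrX:106574346-106603679, minus strand) and had its highest level in the ILC2 gate. ILC2-gated cells had 134 CPM in control (98.2 to 179; 46 UMIs in 27 of 63 cells) and 94.2 in ACD (69.2 to 125; 47 UMIs in 22 of 61 cells), a log2 ratio of -0.51 (-1.13 to 0.11) that held 0. With cells above 1 UMI of Ncr1, Eomes, Klrb1c, Gzma or Gzmc removed, an alternative chosen after the data were seen, 61 and 41 cells remained and the levels were 141 and 159. At 2000 UMIs per cell the ILC2-gated cells with a UMI were 18 of 60 (18.8 to 43.2%) and 12 of 61 (10.6 to 31.8%), while no chondrocyte-like cell held a UMI at that depth. T cell-like cells had 35.6 (29.3 to 43.0; 109 UMIs) in control and 16.0 (14.3 to 17.7; 346 UMIs) in ACD, 2.23-fold lower in ACD (log2 ratio -1.16, -1.47 to -0.83). This gate held 596 control and 2905 ACD cells, and the clusters named as T cells included ones led by Il17a, Cd7, Cd8a and Ctla4. The part of a changed mix of T cells in this ratio was not tested. Macrophage-gated cells had 31.1 (8.48 to 79.6; 4 UMIs) and 20.1 (8.07 to 41.3; 7 UMIs), so in control they did not differ from T cell-like cells beyond counting error, and mast cell-like and basophil-like cells had none.

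**Figure D3:**
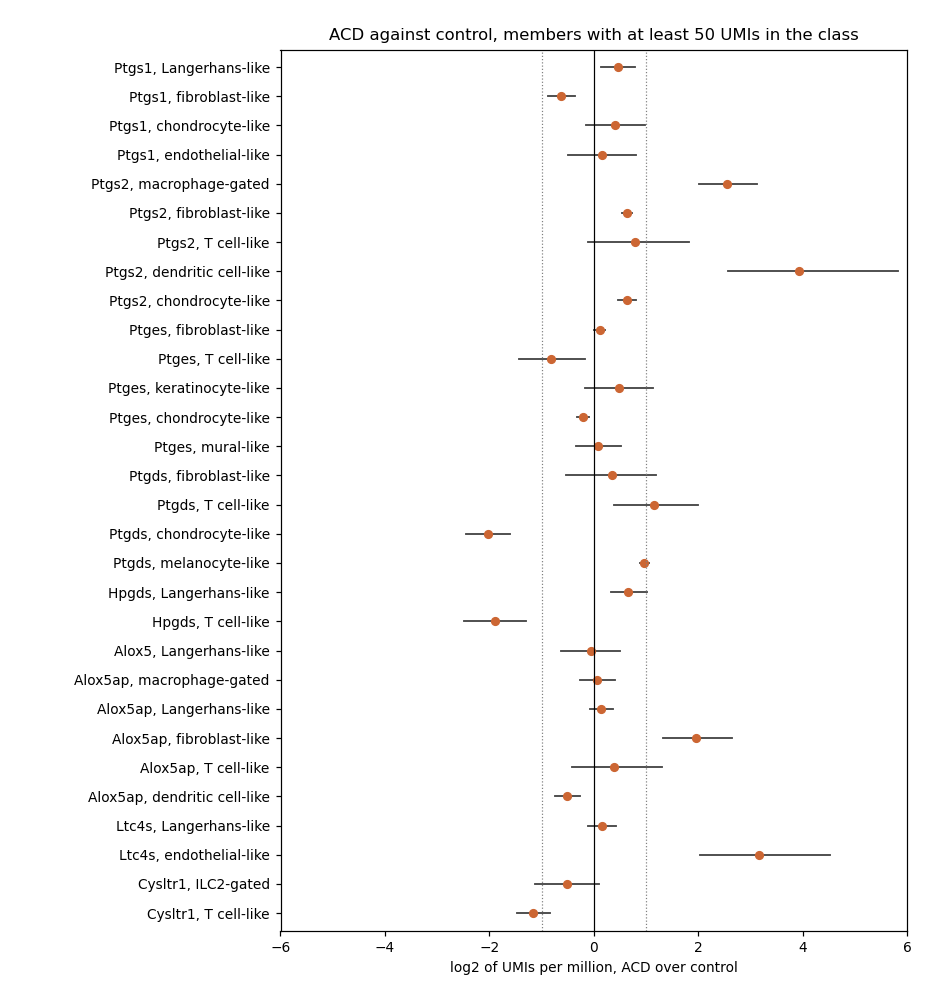
Log2 ratio of CPM, ACD over control, for each member gene and class with at least 50 UMIs over both libraries and at least 20 cells in each. Points are ratios, lines are exact 95% intervals for counting error, and dotted lines mark a 2-fold difference. Ptgs2 in dendritic cell-like and macrophage-gated cells and Ltc4s in endothelial-like cells lie farthest to the right, at 3.94, 2.55 and 3.16, and Ptgds in chondrocyte-like cells lies farthest to the left at -2.02.

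Members were then counted by a fixed size of difference. A gene counted as past 2-fold when its log2 ratio, with 10 CPM added to each library, was at least 1 in size, among genes with at least 50 UMIs in the class. In macrophage-gated cells 2 members had 50 UMIs, and 1 of them, Ptgs2, was past 2-fold higher in ACD, where 12.6% of the 1376 genes tested in that gate were past it in that direction. None was lower, against 9.16% of genes. Both percentages are high, so differences of this size were common in that gate. In Langerhans-like cells 5 members had 50 UMIs and none was past 2-fold, against 3.72% of 1533 genes higher and 3.26% lower. The median of the 5 members was 0.16 on the log2 scale, and that of all genes 0.05. In fibroblast-like cells 5 members had 50 UMIs and none was past 2-fold, against 0.754% of 12328 genes higher and 0.122% lower, with medians of 0.10 and -0.01. In ILC2-gated cells Cysltr1 alone had 50 UMIs and was not past 2-fold, against 4.36% of 2385 genes higher and 3.02% lower. In mast cell-like cells no member reached 50 UMIs, while 1.99% of 1155 genes were higher and 3.2% lower.

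The neighbouring pathway was followed with a list of 45 further genes for arachidonate release, synthesis, transport and receptors, all of them found. In fibroblast-like cells 28 had 50 UMIs, 1 of them was past 2-fold lower in ACD and none was higher. That gene was Pla2g2e, a secreted phospholipase, at 54.5 CPM in control (51.9 to 57.2; 1655 UMIs) and 19.3 in ACD (17.3 to 21.4; 362 UMIs), 2.83-fold lower. The fibroblast-like cells spanned several clusters whose mix differed between the libraries, since a cluster led by Cyp2f2 held 27.9% of them in control and 7.63% in ACD, and one led by Saa3 0.309% and 30.5%. Within the first of these Pla2g2e was at 134 CPM in control (1338 UMIs) and 63.2 in ACD (100 UMIs). It was also lower in ACD in clusters led by Tnc (28.0 and 12.9), Lrrc15 (17.3 and 14.9) and Saa3 (77.5 and 27.8). These values rest on 10 and 7 ACD UMIs for the Tnc and Lrrc15 clusters and 8 control UMIs for the Saa3 cluster. In a cluster led by Sfrp4 the levels were 12.7 and 16.2, and in fibroblast-like cells outside these clusters 3.61 and 1.94. The part of this mix in the other fibroblast-like ratios was not tested. The highest levels in this class were those of Dpep1, a dipeptidase that cleaves leukotriene D4, at 266 and 205, Ptges3 at 119 and 118, and Ptgis, the prostacyclin synthase, at 118 and 163. In Langerhans-like cells 2 of the list had 50 UMIs and none was past 2-fold. Dpep2, another leukotriene D4 dipeptidase, was at 612 (513 to 724) and 519 (448 to 598). In mast cell-like cells 1, in ILC2-gated cells 4 and in macrophage-gated cells 0 of the list had 50 UMIs, and none was past 2-fold. Alox15, which codes for another lipoxygenase, was at 185 CPM in ACD basophil-like cells (165 UMIs).

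**Figure D4:**
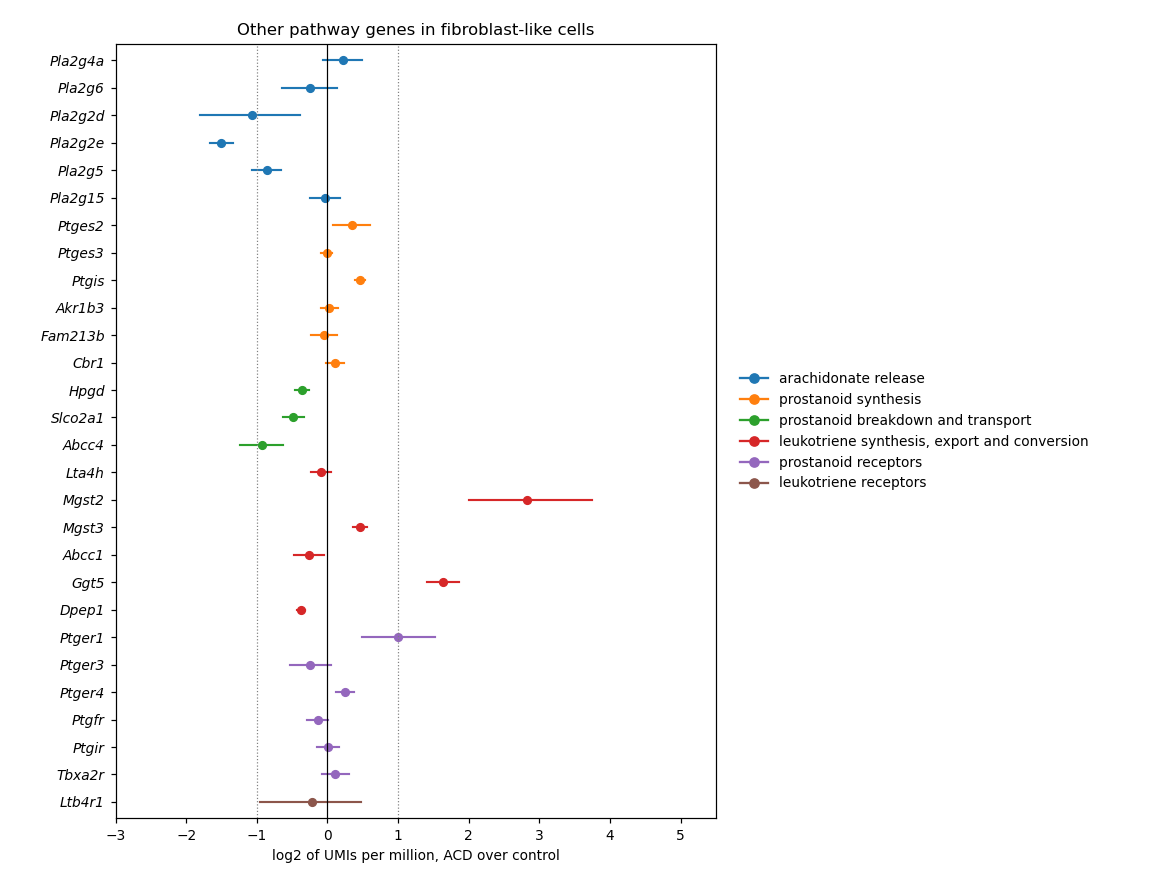
Log2 ratio of CPM, ACD over control, for the 28 other pathway genes with at least 50 UMIs in fibroblast-like cells, grouped by role. Points are ratios, lines are exact 95% intervals for counting error, and dotted lines mark a 2-fold difference. Pla2g2e lies at -1.50, and Mgst2 and Ggt5, which were not past 2-fold once 10 CPM were added, lie at 2.83 and 1.63.

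The pattern of each member over the 28 combinations of class and library with at least 20 cells was compared with 12879 genes by Pearson's r of log2(CPM + 10), as a description. Alox5ap was most like Spi1, which codes for PU.1 (r = 0.97), Ncf1 (0.95) and Cfp (0.94). Ptgds was most like Mc1r, Tyr and Kcnj13 (each r = 0.99). Ltc4s had Ahrr (0.89), Ptgs1 (0.89) and the Langerhans marker Cd207 (0.88) nearest, and Ptgs1 had Ltc4s (0.89), Cacna1e (0.89) and Fgf11 (0.88). The remaining members had nearest genes at 0.84 to 0.90, such as Irx1 for Ptges and Lilrb4a for Ptgs2. The points share libraries and the classes were gated on markers that include Cd207, so these values rank genes and carry no test.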

How the data were processed

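Cells of DNFB-treated and control ear skin were freed with collagenase D and DNase1, dead cells were removed, and 10x Genomics 3′ libraries were sequenced. Per the labels and file headers, the authors made the UMI count matrices with Cell Ranger 3.1.0 on the mm10 reference. The deposited values are whole-number counts per gene and barcode, not normalized, with 12895 and 13163 barcodes and 99037698 and 126566870 UMIs in the control and ACD libraries. Groups were taken from the sample titles. The member genes, gene lists, gates and motifs were chosen with earlier results of these data known.

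Kept barcodes had 201 to 4999 genes, no more than 25000 UMIs, and a mitochondrial share below 8%. A cell entered a class when at least 3 of its markers had a UMI, their sum reached a minimum of 5 to 100 UMIs by class, and no barred gene had more than 1 UMI. Cells of several classes were left out, except that the dendritic cell gate yielded to the Langerhans and macrophage gates, a choice made after the data were seen and a departure from the planned design. Doublets were not removed. Scrublet called 582 control and 418 ACD kept cells, whose removal was an alternative.

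UMIs were summed per class and library. Levels carry exact Poisson, shares exact Clopper-Pearson and ratios exact conditional 95% intervals, all for counting error only, and a count of 0 allows up to 3 UMIs. Shares of cells were also taken after thinning each cell to 2000 UMIs. All members were described, other pathway genes were named where past 2-fold or highest in level, and the 3 genes most like each member were named by Pearson's r. Mgst2 and Ggt5, outside this rule, were chosen after they were seen. Interval code was tested on simulated data. Python 3.11.15, numpy 2.4.6, scipy 1.17.1, pandas 2.3.3, scanpy 1.11.5 and matplotlib 3.10.9 were used. The alternatives covered gates, clusters, cell filters, doublets, scaling, thinning, added UMIs, UMI minimum and the cell holding most UMIs. Pla2g2e within clusters, which were built without member and pathway genes, was examined after the data were seen.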

Additional observations from a re-analysis of the deposited data

Results flagged for a closer look

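Ptgds had a higher level in ACD in T cell-like cells and a lower one in chondrocyte-like cells. The log2 ratio of ACD over control was 1.15 (0.39 to 2.01) in T cell-like cells, from 15 and 235 UMIs, and -2.02 (-2.45 to -1.60) in chondrocyte-like cells, from 275 and 58 UMIs. With 1 library per group the difference between the classes was not tested. In the ACD library 27 of 2905 T cell-like cells held a Ptgds UMI and 1 of them held 80 of the 235, or 34.0%. At 2000 UMIs per cell the share of T cell-like cells with a UMI was 0.521% in control and 0.453% in ACD.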

How the results depend on the processing

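Of 26 member ratios, 14 kept 1 direction in every alternative that gave a value. The alternative values had 10 CPM added, unless another amount was the alternative. They are therefore not set against the intervals printed above, which are for ratios without it. For Alox5ap in fibroblast-like cells the ratio with 10 CPM added was 0.33. Its alternatives ran from 0.07 to 1.27, below the printed interval of 1.32 to 2.64. Of 150 alternative counts of members past 2-fold, 144 equalled the reported count. Some of these had little room to change, since no member reached 50 UMIs in mast cell-like cells and 1 did in ILC2-gated cells. With all deposited barcodes, 1 member (Ptgs2) was past 2-fold higher in Langerhans-like cells and 1 (Ptgs2) in fibroblast-like cells, and with 1 UMI per 1000000 added 1 (Alox5ap) was in fibroblast-like cells. In macrophage-gated cells 1 member (Hpgds) was past 2-fold lower at a minimum of 20 UMIs and 3 (Hpgds, Alox5 and Ltc4s) with no minimum, and in ILC2-gated cells 1 (Ptgs2) was with no minimum, since a lower minimum considers more members. The cause of the others was not tested. Clusters gave no macrophage, dendritic cell or ILC2 value, because none could be named so. No paired analysis was possible because each group has 1 library, and for the same reason no replicate could be left out. Mast cell-like depth, and 1 basophil-like and 3 neutrophil-like control cells, limit what those classes can show.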
